A study of Mus musculus with 44 samples.

Results

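Neutrophils are short-lived white blood cells that are made in the bone marrow and carry their weapons in granules. Their precursors first fill azurophil granules with myeloperoxidase and serine proteases, later specific granules with lactoferrin and cathelicidin, and last gelatinase granules, and the messages for granule proteins are made mainly while the cell matures. The ripe cell is rich in the cytosolic protein pair S100A8 and S100A9, and it leaves the blood by means of integrins and answers to the growth factor G-CSF. The 10 genes described here follow that order: Mpo and Elane of the azurophil granule, Ltf and Camp of the specific granule, Mmp9 of the gelatinase granule, S100a8 and S100a9 of the cytosol, and Itgam, Ly6g and Csf3r of the surface. They were 10 of the 54446 gene identifiers of the count table. The 10 genes were chosen by their lower values in KD than in CD livers, so liver values are given as a description with no test, while the brains were not used in the choice.

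The study asked how a ketogenic diet (KD), rich in fat and without carbohydrate, changed gene expression in liver and brain relative to a control diet (CD). Male C57BL/6 mice of an aged colony, with no allele, transgene or drug named, began the diets at 12 months of age. RNA of 8 CD and 8 KD livers and of 8 CD and 8 KD brains was taken at 26 months, and of 5 CD and 7 KD brains at 12 months. The mice of 26 months in the KD groups had eaten KD and CD in alternate weeks and, like their CD counterparts, were sampled in a week of CD, and the KD mice of 12 months had eaten KD for one week. Tissues were whole, so in these bulk samples fewer cells of a type and less RNA per cell cannot be told apart, and whether blood was flushed out is not given in the sources used here. A library is named by its diet and the replicate number of its label. The sources used here do not say that a liver and a brain of equal number came from the same mouse.

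The livers held 6879726 to 12682087 counts and the brains 7447742 to 12744415. Levels are CPM, counts per 1000000 counts of the library after TMM scaling within a tissue, and 3 counts in a library are taken as the floor of a level. Hepatocyte markers summed to 20280 CPM or more in every liver and neuron markers to 4645 CPM or more in every brain. The repeat transcript Gm10800 made up 1.23 to 2.39% of the counts in KD livers 10, 11, 14, 15 and 16 and 1.61% in CD liver 1, but at most 0.00580% elsewhere in liver. It made up 0.0347 to 1.22% in the brains of 26 months and at most 0.00170% in those of 12 months, so it differed with age. The brains of 26 months also held counts for more genes, 31438 to 44376 against 30019 to 31181.

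The start regions of the 9 genes with an entry in the RefSeq promoter table (GRCm38.p6) were searched for short motifs of the factors that drive granulocyte genes. The windows ran from 250 bases before to 50 bases after the start. GAGGAA, a core of PU.1 and its ETS relatives, stood in the windows of 7 of the 9 genes, against 28.3% of all 32851 windows of the table. TTGCNNAA, a form of the C/EBP site, stood in 3 of 9 against 10.8%, and TGTGGT, the RUNX core, in 2 of 9 against 16.8%. Both strands were read, no overlap between motifs was removed, and a match is a description of letters, not a site. A gene may have more than 1 window. Stretches before the start of 5 genes are shown because they hold such matches, which stand in capitals on either strand. Itgam lay at chr7:128062520-128062639 on the + strand, Elane at chr10:79886127-79886246 on the + strand, Ly6g at chr15:75155120-75155239 on the + strand, Ltf at chr9:111019151-111019270 on the + strand and S100a9 at chr3:90695722-90695841 on the - strand, each 120 bases ending just before the gene.
Itgam: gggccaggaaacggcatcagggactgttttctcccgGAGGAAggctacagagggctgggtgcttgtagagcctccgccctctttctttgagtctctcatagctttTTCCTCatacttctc
Elane: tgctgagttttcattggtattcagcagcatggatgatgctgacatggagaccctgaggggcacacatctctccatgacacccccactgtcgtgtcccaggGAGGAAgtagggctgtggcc
Ly6g: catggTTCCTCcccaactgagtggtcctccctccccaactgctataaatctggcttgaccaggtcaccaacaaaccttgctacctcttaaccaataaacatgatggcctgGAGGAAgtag
Ltf: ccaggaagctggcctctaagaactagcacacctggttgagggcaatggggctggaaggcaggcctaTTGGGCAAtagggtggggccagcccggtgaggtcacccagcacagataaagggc
S100a9: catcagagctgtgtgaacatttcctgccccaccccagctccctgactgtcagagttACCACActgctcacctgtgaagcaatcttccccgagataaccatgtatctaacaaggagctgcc
Itgam, Elane and Ly6g carried GAGGAA or its complement, Ltf the C/EBP form, and S100a9 the complement of the RUNX core.

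In the liver the 10 genes were far higher in some CD mice than in any KD mouse, and about as low as in KD in the rest. CD livers 3 and 6 were the 2 highest CD livers for all 10 genes, with liver 3 the highest for 6 of them and liver 6 for 4. CD livers 5 and 7 followed at lower levels. The 10 genes summed to 1339 CPM in CD liver 3, 1604 CPM in CD liver 6, 180.1 CPM in CD liver 5 and 235.1 CPM in CD liver 7. They summed to between 11.9 and 19.9 CPM in CD livers 1, 2, 4 and 8. In KD the sum ran from 19.3 CPM to 79.8 CPM, with KD liver 12 the highest and also the highest KD liver for 8 of the 10 genes. The lowest KD sums thus lay beside those of the 4 low CD livers.

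**Figure D1:**
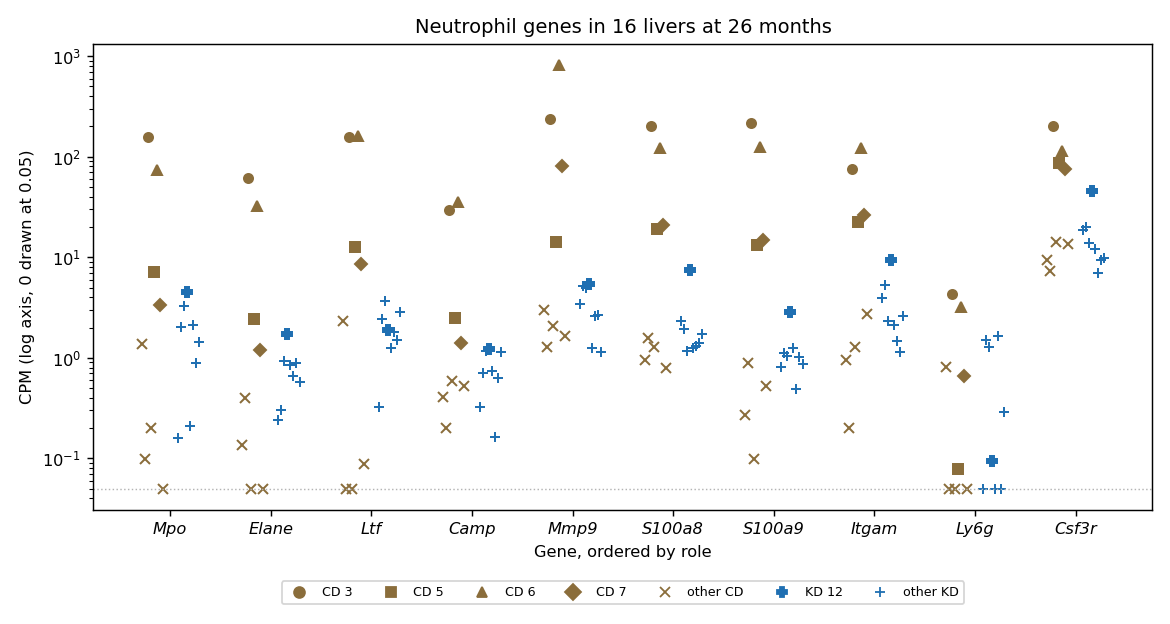
Level of each gene in each of 16 livers (vertical axis in CPM, logarithmic, with 0 drawn at 0.05; horizontal axis, genes by role). Each symbol is 1 liver, brown for CD and blue for KD. CD livers 3 and 6 stood highest for every gene, and the CD crosses lay among or below the KD livers.

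Of the azurophil granule genes, Mpo (chromosome 11, 87793581 to 87804413) encodes the peroxidase that makes hypochlorous acid. Its lowest, median and highest levels were 0, 2.35 and 156 CPM in CD and 0.161, 1.73 and 4.46 CPM in KD. CD livers 3, 5 and 6, with 2360, 90 and 923 counts, lay above every KD liver, and liver 7 with 45 counts lay among them. Elane (chromosome 10, 79886247 to 79888215), which encodes neutrophil elastase, had 929, 31, 401 and 16 counts in CD livers 3, 5, 6 and 7 and none in CD livers 4 and 8. In KD it ran from 3 to 18 counts. So 3 CD livers lay above the KD range for both azurophil genes, and for both the lowest CD livers lay below it.

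Of the specific granule genes, Ltf (chromosome 9, 111019271 to 111042767) encodes lactoferrin, which binds iron. It had 2358 counts in CD liver 3, 1999 in liver 6, 160 in liver 5 and 117 in liver 7. It had 17, 0, 0 and 1 counts in CD livers 1, 2, 4 and 8, while every KD liver had between 4 and 32. Of the 8 CD livers 4 thus lay above the KD range of Ltf, 1 within it and 3 below it. Camp (chromosome 9, 109847379 to 109849617) encodes the antimicrobial peptide cathelicidin. Its lowest, median and highest levels were 0.199, 1 and 35.9 CPM in CD and 0.163, 0.721 and 1.24 CPM in KD, with 4 CD livers above the KD range and 4 in it.

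Mmp9 (chromosome 2, 164940780 to 164955850), the gelatinase that cuts collagens of basement membranes, spread widely. It had 22, 13, 3582, 21, 181, 10094, 1105 and 19 counts in CD livers 1 to 8 and from 8 to 57 counts in KD. CD liver 6 alone held 815 CPM of it, against 236 CPM in liver 3. The alarmin genes S100a8 (chromosome 3, 90668978 to 90670035) and S100a9 (chromosome 3, 90692632 to 90695721) encode the pair that forms calprotectin. S100a8 counts were 3061 in CD liver 3, 1521 in liver 6, 283 in liver 7 and 246 in liver 5, and those of S100a9 were 3303, 1535, 200 and 170. KD liver 12 had 78 counts of S100a8 and 30 of S100a9, the highest of the KD group. For each of these 3 genes CD livers 3, 5, 6 and 7 lay above all KD livers and no other CD liver did.

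Itgam (chromosome 7, 128062640 to 128118491) encodes the alpha chain of the integrin Mac-1, which monocytes, macrophages and microglia bear as well. Its lowest, median and highest levels were 0.199, 12.5 and 122 CPM in CD and 1.14, 2.45 and 9.50 CPM in KD. Its counts are less certain, since 3450 of its 5024 exon bases are shared with the readthrough gene Gm49368, which had 0 to 13 counts per liver. Csf3r (chromosome 4, 126024550 to 126044440) encodes the G-CSF receptor. Its lowest, median and highest levels were 7.26, 45.1 and 201 CPM in CD and 7.02, 13 and 45.2 CPM in KD. CD livers 3, 5, 6 and 7 lay above all KD livers for both. For Csf3r the other 4 CD livers lay inside the KD range, the lowest of them near its lower end.

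Ly6g (chromosome 15, 75155240 to 75159126), which encodes the surface antigen used to stain mouse neutrophils, had few counts and another pattern. It had 66 counts in CD liver 3, 40 in liver 6, 9 in liver 7, 6 in liver 1, 1 in liver 5 and none in the remaining CD livers. In KD it had 15, 11 and 10 counts in livers 10, 11 and 14 and at most 2 in the others. KD liver 12, the highest for 8 of the other genes, had 1 count. Of the 6 livers with Gm10800 above 0.01% of counts 5 had a Ly6g count, namely CD liver 1 and 4 of 5 KD livers, and 1 of the 3 KD livers below that limit did. What part this has in the Ly6g counts was not tested.

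No gene of the 10 separated the diets: the CD and KD livers overlapped for all 7 genes that passed the filter on low counts. Mpo, Ltf, Mmp9, S100a8, S100a9, Itgam and Csf3r passed the filter, and Elane, Camp and Ly6g did not. Among all 18002 genes tested 0.0667% did not overlap. The log2 fold change of KD against CD, which is the quantity that chose the genes, was -4.06 for Mpo (SE 1.35), -4.44 for Ltf (SE 1.34) and -1.93 for Csf3r (SE 0.67), and the median of the 7 was -4.29 against 0.04 for all genes. In this comparison 0 of 18002 genes were called, which is 0%, by the quasi-likelihood test of edgeR at an adjusted p under 0.05, 2792 had an unadjusted p under 0.05, DESeq2 called 177 and limma with quality weights 0. On the log scale of limma voom, a model added after seeing the data, the median of the 7 was -1.45, with Mpo at -1.26 and Ltf at -1.01. With sample quality weights, 0.252 to 0.6 for CD livers 3, 5, 6 and 7 and 0.772 to 2.95 for the other livers, it was -0.69, and Mpo and Ltf stood at 0.81 and 1.22. The size of the difference thus differed between the models, and for these 2 genes the weights turned its direction.

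Ratios between genes showed which of them moved in step from liver to liver. Elane kept a ratio to Mpo of 0.394, 0.344, 0.435 and 0.356 counts in CD livers 3, 5, 6 and 7, and Camp kept one to Ltf of 0.189, 0.2, 0.222 and 0.162. These ratios within a granule varied little between the 4 livers. That of the azurophil gene Prtn3 to Mpo did not stay so, at 0.247 in liver 3, 0.944 in liver 5, 0.288 in liver 6 and 3.49 in liver 7. Between granules, Ltf per Mpo ran from 0.999 in liver 3 to 2.6 in liver 7. Mpo per S100a8 was 0.771 in CD liver 3 and 0.159 in CD liver 7. Mmp9 per S100a8 was 1.17 in liver 3, 0.736 in liver 5, 6.64 in liver 6 and 3.91 in liver 7, and Mmp9 per Mpo ran from 1.52 in liver 3 to 24.6 in liver 7. Csf3r per S100a8 was near 1 in the highest livers, 0.997 in liver 3 and 0.924 in liver 6, but 4.48 in liver 5 and 3.62 in liver 7. These ratios have no replicate within a liver and were not tested.

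**Figure D2:**
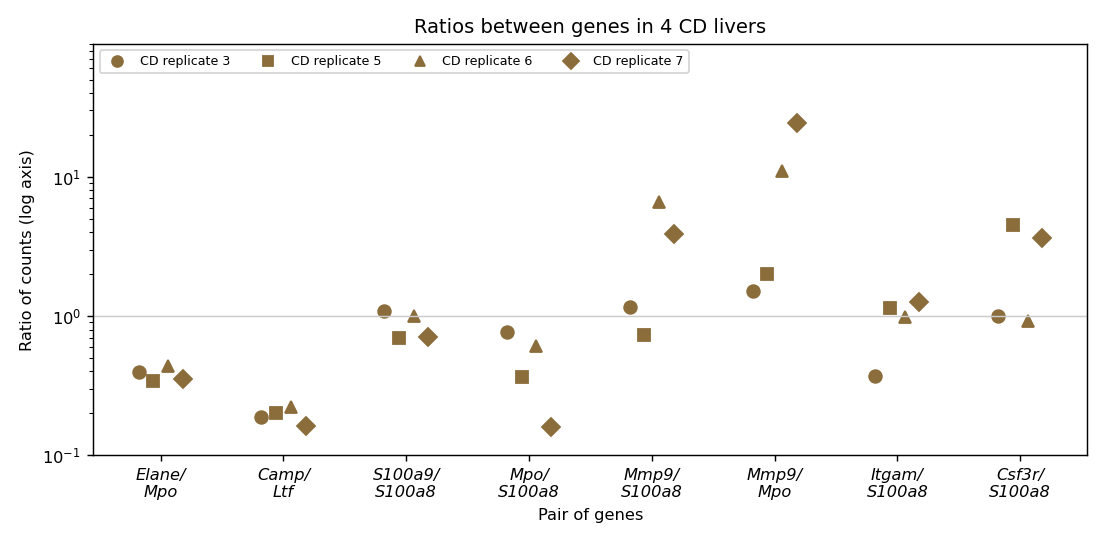
Ratio of counts between pairs of genes (vertical axis, logarithmic) in CD livers 3, 5, 6 and 7, each symbol 1 liver. Elane to Mpo stayed between 0.344 and 0.435 and Camp to Ltf between 0.162 and 0.222, while Mmp9 to Mpo ran from 1.52 to 24.6.

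Per kilobase of exon, the median levels in CD livers ran from 15.1 CPM for S100a8, 13.6 for S100a9 and 12.5 for Csf3r down to 0.395 for Ly6g. The SD between CD livers was 108 CPM per kilobase for S100a8 and 155 for S100a9. The genes were read in the same livers, so this SD does not measure their difference within a liver. The order of neighbours was not tested. In KD the order began with Csf3r at a median of 3.61 CPM per kilobase, S100a8 at 2.24 and S100a9 at 1.97, and ended with Itgam at 0.488 and Ly6g at 0.203.

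Other genes of the neutrophil system followed the same livers. All 19 tested genes of the receptor list had a log2 fold change of KD against CD below 0, with a median of -2.13, and Clec4e and Cxcr2, a lectin that senses fungi and the chemokine receptor that draws neutrophils, had -2.71 and -2.69, and the activating receptor gene Clec5a -2.64. All 6 subunit genes of the NADPH oxidase, which makes superoxide in the phagosome, were below 0 with a median of -1.87, and Ncf1, Rac2 and Ncf4 had -2.07, -1.96 and -1.94. Of the 12 genes of integrins, selectins and their ligands 11 were below 0, with Vcam1, the ligand of another integrin, at -2.08 and Fermt3, which switches integrins on, at -1.82. Chil3, a chitinase-like gene of the specific granule list that is on the monocyte marker list too, had -4.32. Ifitm6 of the cytosol and surface list had -3.30. These lists were chosen with the liver results known, and 0 of their genes were called in the liver. Receptor genes summed to 1051 to 2353 CPM in CD livers 3, 5, 6 and 7, 748.6 CPM in KD liver 12 and at most 291.4 CPM elsewhere.

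Prtn3 and Lcn2, granule genes outside the 10, went apart from them in 1 KD liver. Prtn3, which encodes proteinase 3, had 582, 85, 266 and 157 counts in CD livers 3, 5, 6 and 7, but 620 in KD liver 13, where Mpo had 2 and Elane 8. Its log2 fold change was -0.14 (SE 1.16), against -4.06 for Mpo. Lcn2, which encodes lipocalin 2 of specific granules and is made by hepatocytes too, had 7261 counts in the same KD liver and 5908 to 20627 in CD livers 3, 5, 6 and 7. Ngp, a specific granule gene named after its values were seen, had 7266 and 4923 counts in CD livers 3 and 6 and 6 in KD liver 13. Mpo, Elane and Ngp were thus low in KD liver 13 while Prtn3 and Lcn2 were high there. Hepatic acute-phase genes, a list that holds Lcn2, summed to 38600 CPM in that liver and to between 9441 and 18190 CPM in every other liver. Their log2 fold changes of KD against CD had a median of 0.01, with Lcn2 at -1.88, Saa2 at 1.51 and Saa3 at -1.18. The part of the acute-phase genes in these levels was not tested.

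Chemoattractants and granule transcription factors differed less. Of the 6 tested growth factors and chemokines, 5 were below 0. Ppbp, which is on the platelet marker list too, had -1.63. Cxcl2 had -1.34 and Cxcr4, which holds neutrophils in the marrow, -1.26. Of 10 transcription factors 7 were below 0, with Spi1 (PU.1) at -1.60 and Cebpd at -1.14, while Klf5 stood at 1.58. Inhibitors of granule proteases had a median of 0.07, with 6 of 11 above 0 and Serpinb6a, A2m and Serpina3n at -1.42, -1.23 and -0.64.

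Markers of some other cells stood high in the same livers. Kupffer cell markers summed to 3813 to 4800 CPM in CD livers 3, 5, 6 and 7, 2695 CPM in KD liver 12 and 637.3 to 1655 CPM in the other 11 livers, and 11 of 12 of them were lower in KD. Cycling cell markers summed to 285 to 506.5 CPM in those 4 livers, 208.9 CPM in KD liver 12 and at most 88.6 CPM elsewhere, with all 10 lower in KD. T and NK cell markers summed to 118.2 to 196.9 CPM there and erythrocyte markers to 644.2 to 1092 CPM, while the other livers had at most 100 and 520.9 CPM. Platelet markers summed to 79.2 to 285.4 CPM there, 101.6 CPM in KD liver 12 and at most 20.4 CPM elsewhere. Hepatocyte markers ran the other way, at 20280 to 30870 CPM in the 4 CD livers and 35920 to 61370 CPM in the rest. Monocyte markers did not follow these livers in sum, with medians of 3871 CPM in CD and 3921 CPM in KD. The highest CD sum, 4891 CPM, was in liver 2 and the lowest, 3021 CPM, in liver 5. That sum rests largely on Fn1, at an average log2 CPM of 11.8 against 7.67 for F10. Of the 12 markers 9 had log2 fold changes of KD against CD below 0, with a median of -1.02 and 0 called. Chil3, Vcan and Ms4a6c had -4.32, -1.83 and -1.65, while Fn1, F10 and Ace had 0.07, 0.23 and 0.34. The part of all these cells in the levels of the 10 genes was not tested.

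**Figure D3:**
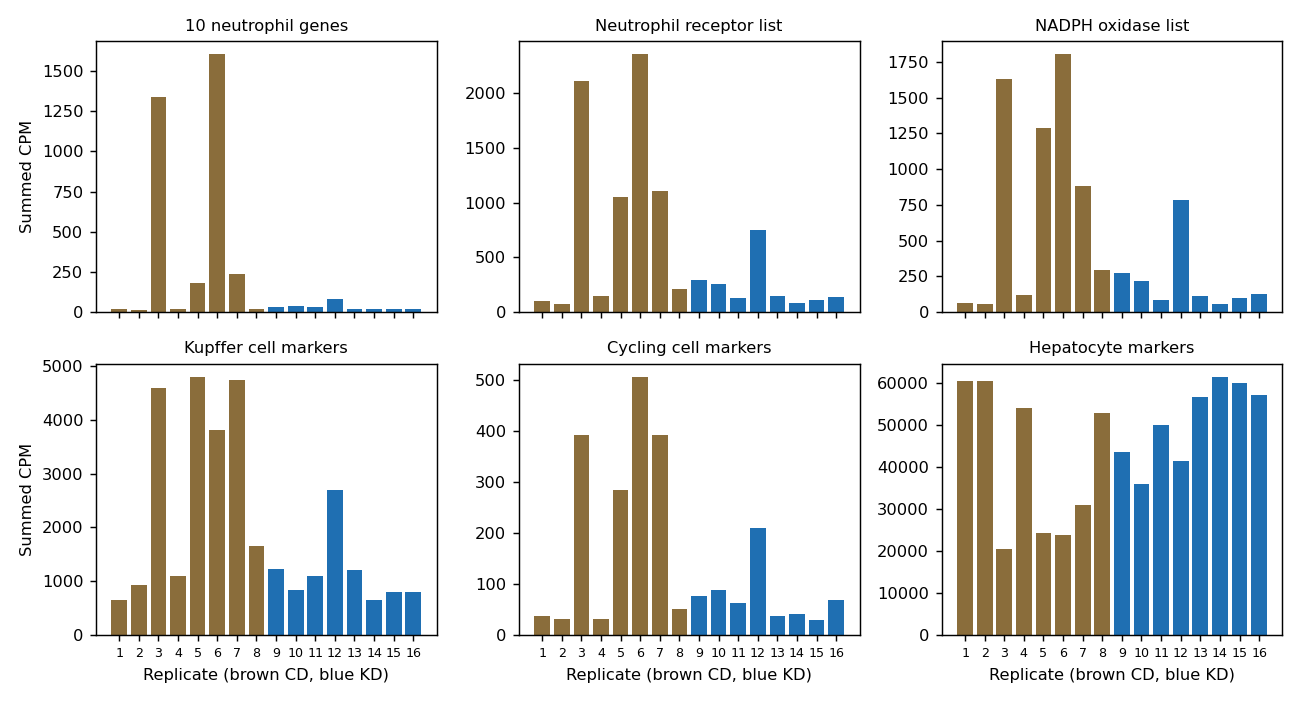
Summed level of the 10 genes and of 5 gene lists in each of 16 livers (vertical axes in CPM from 0; horizontal axis, replicate number, brown CD and blue KD). Every panel but the last peaks in CD livers 3, 5, 6 and 7 with KD liver 12 next, and hepatocyte markers are lowest in those CD livers.

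By Pearson r, the genes outside the 10 that most resembled them across the 16 livers were Tmtc1, Tnfrsf26, Exoc1, Ampd3, Vopp1, Vav3, Nhsl2, Rasgrp4, Slc16a3 and Mest. Their Pearson r with the mean z value of the 7 filtered genes ran from 0.969 to 0.984, a description that rests largely on CD livers 3, 5, 6 and 7. Within the 8 KD livers r ran from 0.742 for Nhsl2 to 0.947 for Tmtc1. Tmtc1 ranged from 8.25 to 80.2 CPM in CD and from 9.47 to 22.7 CPM in KD. The genes of 1 liver share its depth and cell makeup in these figures, so no p is given.

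In the brain 3 of the 10 genes passed the filter, Csf3r, Itgam and Mmp9, and the other 7 were near the limit of detection. Of 196 values of those 7 genes in 28 brains, 132 were at 3 counts or fewer and 40 were at 0, and 10 were over 10 counts. Csf3r was the only one of the 3 called in any of the brain comparisons, and only with age.

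Csf3r had 6.68, 8.28, 6.81, 9.24 and 8.82 CPM in CD brains 1, 4, 7, 13 and 16 of 12 months. At 26 months on CD its lowest, median and highest levels were 9.92, 11.4 and 14.5 CPM. Each of the 8 old CD brains lay above each of the 5 younger ones. The log2 fold change with age was 0.57 (SE 0.14, edgeR adjusted p = 0.0443), against 1.26% of the 22079 genes tested that were called with age, and 1.27% did not overlap between these groups. This call was close to its limit. It held without CD brain 13 of 12 months or CD brain 1 or 3 of 26 months, and was lost without CD brain 1, 4, 7 or 16 of 12 months or 2, 4, 5, 6, 7 or 8 of 26 months, 10 of the 13 libraries. The fold change stayed between 0.51 and 0.62 in these fits, with edgeR adjusted p values of 0.0348 to 0.141. It was lost without the filter on low counts as well (0.52, edgeR adjusted p = 0.0890). All brains of 26 months held more Gm10800 than any of 12 months, so age and that difference cannot be told apart.

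Diet gave no call for Csf3r. One week of KD gave 0.24 (SE 0.15), with 6.85 to 12.3 CPM in 7 KD brains against 6.68 to 9.24 CPM in 5 CD brains. The cyclic KD at 26 months gave -0.02 (SE 0.12), with 8.60, 12.1 and 14.1 CPM as lowest, median and highest, and its groups overlapped. The difference between the 2 diet effects was -0.26 (SE 0.19, edgeR adjusted p = 1).

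Itgam did not differ beyond its spread between the 4 brain groups. Its levels were 3.38, 2.76, 3.49, 3.57 and 3.66 CPM in CD brains of 12 months, 1.67 to 3.67 CPM in KD brains of 12 months, 2.90 to 4.74 CPM in CD brains of 26 months and 2.83 to 4.11 CPM in KD brains of 26 months. Its log2 fold changes were -0.31 (SE 0.16) with one week of KD, 0.16 (SE 0.16) with age and -0.03 (SE 0.14) with the cyclic KD. All groups overlapped and none of these was called.

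Mmp9 in the brain was low and variable. Its levels were 3.20, 1.94, 1.57, 1.22 and 1.13 CPM in CD brains of 12 months, and its lowest, median and highest levels were 1.38, 2.07 and 4.26 CPM in KD brains of 12 months. At 26 months they were 0.821, 2.30 and 3.58 CPM in CD and 1.1, 1.76 and 2.29 CPM in KD. The log2 fold changes were 0.41 (SE 0.30) with one week of KD, 0.45 (SE 0.30) with age and -0.47 (SE 0.26) with the cyclic KD, none called, and the groups overlapped. The 2 diet effects differed by -0.88 (SE 0.40), with edgeR adjusted p = 1 and an unadjusted p of 0.0379.

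**Figure D4:**
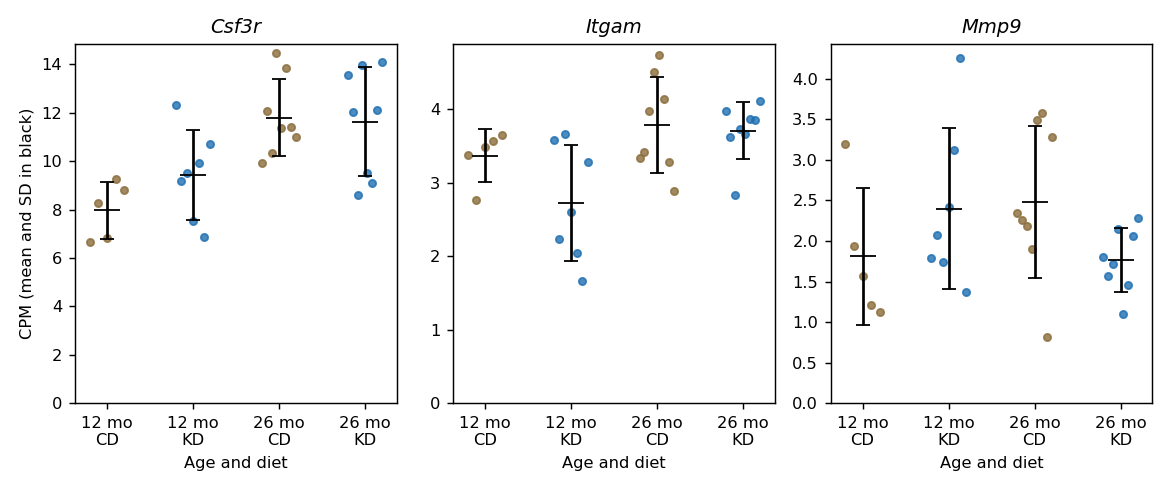
Levels of Csf3r, Itgam and Mmp9 in the 4 brain groups (vertical axes in CPM from 0; horizontal axis, age in months and diet). Each point is 1 brain and black bars are the mean and SD. All Csf3r points of 26 months on CD lie above those of 12 months on CD, and the other groups overlap.

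Among all genes 0.00453% (1 of 22079) were called for one week of KD, 0% for the cyclic KD and 0% for the difference between the diet effects, with 585, 999 and 998 genes at an unadjusted p under 0.05. DESeq2 called 1, 0 and 2 genes and limma with quality weights 1, 0 and 0. Groups did not overlap for 0.263% of genes with one week of KD and for 0.00453% with the cyclic KD, and 0 of the 3 genes were among them.

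The tested genes of the receptor, integrin and NADPH oxidase lists had log2 fold changes above 0 with age. Which cells expressed them was not tested. All 11 tested receptor genes were above 0 in old CD brains at a median of 0.78, and 5 were called: Csf3r, Fcgr3 (0.86, SE 0.13, edgeR adjusted p = 0.000305), Tlr2 (1.17, SE 0.22), Csf2rb (1.35, SE 0.26) and Clec5a (0.92, SE 0.22). All 10 tested genes of integrins, selectins and ligands were above 0, and 2 were called. Itgax, the alpha chain of another beta-2 integrin, had 3.11 (SE 0.35, edgeR adjusted p = 1.00e-05), and Itgb2, the beta chain that pairs with Itgam, had 0.92 (SE 0.17). Cyba, Ncf1 and Cybb were called among the 6 NADPH oxidase genes, at 0.94, 0.63 and 1.29. Of all genes tested 1.26% were called with age and 49.5% were above 0, with a median of 0.00, and these lists were chosen with earlier results known.

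The lists of transcription factors and inhibitors held some calls as well. Spi1 (0.78, SE 0.18), Runx1 (0.66, SE 0.15) and Cebpd (0.97, SE 0.24) were called higher with age among 8 tested. Serpina3n, a protease inhibitor of reactive astrocytes, was called at 1.30 (SE 0.27), and 0 of the growth factors and chemokines were. Among microglia markers C1qa, C1qb and C1qc were called at 0.80 to 0.83 while the median of the 16 was 0.16, and among Kupffer cell markers Adgre1, which microglia express too, was called at 0.55. Erythrocyte markers were above 0 for 7 of 8, with a median of 1.09 and 0 called. The part of these cells in the Csf3r call was not tested.

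With one week of KD or with the cyclic KD 0 genes of these lists were called in the brain. The medians of the receptor list were 0.17 and -0.10 and those of the NADPH oxidase genes 0.28 and -0.06. Cxcl12, the chemokine that keeps neutrophils in the marrow, had 0.50 (SE 0.11) with one week of KD, with an unadjusted p of 0.000125 and an edgeR adjusted p = 1. Ppbp had 1.83 (SE 0.69, edgeR adjusted p = 0.240) with age. These comparisons share the same CD brains with the comparison of ages.

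In the brain, 2 libraries held counts of the genes that were otherwise near 0. The KD brain 11 of 12 months had 68 counts of S100a8, 38 of S100a9, 51 of Ltf, 17 of Camp, 16 of Mpo and 10 of Elane. The next highest values among the KD brains of that age were 9, 4, 5, 4, 3 and 1 counts. It had 149 counts of Ngp too, but its Itgam (21 counts) and Csf3r (102 counts) lay inside the group, and Ly6g was at 0, as in all 12 brains of that age, which allows up to 3 counts per library. Mpo and Elane of the azurophil granule and Ltf, Camp and Ngp of the specific granule thus stood high in this brain. The azurophil gene Prtn3 did not stand apart, with 8 counts here (0.780 CPM) and 8 in KD brain 2 (0.718 CPM). Mmp9, at 32 counts and 3.12 CPM, lay inside the range of 1.38 to 4.26 CPM of its group. Its cycling cell markers summed to 23.6 CPM, the highest of all 28 brains, and its erythrocyte markers to 259.1 CPM, while the other KD brains of its age had 148.3 to 226.1 CPM. Their part in these counts was not tested.

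The CD brain 6 of 26 months had 51 counts of S100a8 and 31 of S100a9 but 5 of Ltf, 7 of Camp, 3 of Mpo and 2 of Elane. Its 36 counts of Ngp (3.39 CPM) were the highest of its group as well, with 1.5 CPM in the next brain. For the S100 genes the next brain, replicate 3, had 13 and 12 counts of S100a8 and S100a9. Mpo per S100a8 was 0.0588 in CD brain 6 and 0.235 in KD brain 11. Erythrocyte markers were highest of all brains in CD brain 6, at 419.4 CPM, and its cycling cell markers, at 8.76 CPM, were the lowest of its group. CD brain 5 of 26 months, next in erythrocyte markers at 386.8 CPM, had 10 counts of S100a8 and 1 of S100a9.

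**Figure D5:**
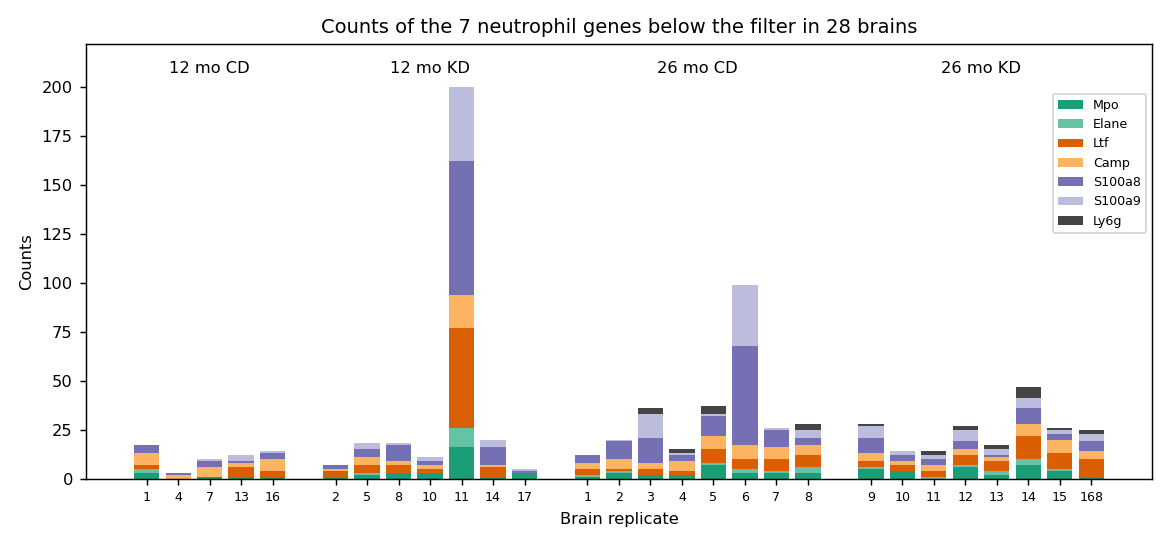
Counts of the 7 genes that did not pass the filter, stacked for each of 28 brains (vertical axis in counts; horizontal axis, replicate number by age and diet). KD brain 11 of 12 months reached 200 counts in all with every gene but Ly6g, and CD brain 6 of 26 months reached 99 counts, mostly S100a8 and S100a9.

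Without the filter, the fit for one week of KD gave S100a8 a log2 fold change of 2.49 (SE 0.92) and Ltf 2.31 (SE 0.85), with edgeR adjusted p = 1 for both. Without KD brain 11 these fell to 0.83 and 0.58. With age, S100a8 had 2.39 (SE 0.91, edgeR adjusted p = 0.159), and 1.61 without CD brain 6. With the cyclic KD, S100a8 had -1.5 (SE 0.69), and -0.73 without CD brain 6, while S100a9 went from -0.71 to 0.41. Each of these differences became smaller or changed sign without 1 brain, and 0 of the 10 genes were called in such a fit. The brain left out was picked as the highest of its group for these genes, so a smaller difference followed from that choice.

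Ly6g had no count in the 12 brains of 12 months and 1 to 6 counts in 11 of the 16 brains of 26 months. Its sum was 28 counts over those 16 brains. Without the filter its log2 fold change with age had an edgeR adjusted p = 0.144, and since the younger groups were at 0 no fold is given. Gm10800 separated the ages in the same way, and its part was not tested.

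Lcn2, of the specific granule list, was called with age at 4.36 (SE 1.02, edgeR adjusted p = 0.0275), with 0 to 6 counts in CD brains of 12 months. At 26 months the CD brains 3, 5, 6 and 7 had 123, 78, 132 and 71 counts, and CD brains 1, 2, 4 and 8 had 5 to 15. Those replicate numbers are the ones of the CD livers in which the 10 genes stood high, although the sources used here do not tie brains to livers. Ltf and Camp did not follow Lcn2, with 3, 7, 5 and 6 counts of Ltf and 3, 7, 7 and 6 of Camp in the same brains. S100a8 had 13, 10, 51 and 9 counts there and S100a9 12, 1, 31 and 1. Both were thus highest in CD brains 6 and 3, which also had the most Lcn2. Whether they go with Lcn2 was not tested. The cyclic KD gave Lcn2 -1.85 (SE 0.67, edgeR adjusted p = 0.989).

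Per kilobase of exon Csf3r led in all 4 brain groups, with medians of 2.29, 2.64, 3.15 and 3.35 CPM in CD and KD brains of 12 months and CD and KD brains of 26 months. Itgam (0.519 to 0.755), Mmp9 (0.444 to 0.650), S100a8 (0.377 to 1.1), Camp and S100a9 lay below it, and their order differed between the groups. Elane, Mpo, Ltf and Ly6g were lowest, at medians of at most 0.196 CPM per kilobase. The brain genes most like the mean z value of Csf3r, Itgam and Mmp9 over 28 brains were Aif1, Cd84, Vav1, Fcer1g and Dock2, with r from 0.782 to 0.812. The 3 genes hardly followed one another there. Against the mean of the other genes of the 3, r was 0.438 for Csf3r, 0.199 for Itgam and -0.18 for Mmp9. In the liver r was 0.908 to 0.969 for the 7 genes, and Spearman rho was 0.744 to 0.873. Liver values chose the genes, and 7 genes entered there against 3 here, so the tissues cannot be compared by these figures.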

How the data were processed

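An RNA removal kit (QIAseq FastSelect) was used in library preparation, beside the KAPA RNA HyperPrep Kit. Reads were trimmed with Trimmomatic, aligned to GRCm38 with STAR and counted with RSEM by the authors, with versions not given in the sources used here. The count table as deposited holds whole numbers per gene for each library, with no normalization by the authors. Of 54446 identifiers 54409 received a symbol from GENCODE vM21. The 10 genes and the gene lists were chosen with earlier results of these data known.

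The counts went into edgeR 4.0.16 under R 4.3.3 with filterByExpr, TMM factors and quasi-likelihood F tests, as 1 fit of 16 livers (18002 genes) and 1 of 28 brains in 4 groups (22079 genes). Benjamini-Hochberg adjustment ran over all genes of a fit, and "called" means an adjusted p under 0.05. Fold changes are log2, with their standard errors (SE). The labels name no batch and do not say how far replicates were handled apart, so p-values measure the spread between these libraries. Floors cover counting error only.

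Named are the 10 genes, the genes most like their mean z value (log2 CPM, prior count 2), and from each neutrophil or acute-phase list the genes called in a brain comparison, else the 2 with the smallest p there, and the 3 with the largest absolute fold change in the liver. The strand setting of the counting is not given, so overlapping genes may share reads: Gm49368 overlaps Itgam, and Gm11505, with at most 1 count per library, overlaps Mpo. Alternatives were DESeq2 1.42.0, limma 3.58.1 (voom with quality weights), RLE factors, total counts, no filter, the 2 groups alone, a replicate block and each library left out. Limma voom without weights, fits without livers high in Gm10800, and fits without the filter and 1 brain, were added after seeing the data. Scripts were tested on simulated data. Promoter sequences are from RefSeq (GRCm38.p6).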

Additional observations from a re-analysis of the deposited data

Results flagged for a closer look

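Levels of each gene in each group were searched for a library whose gap to the next was large against the range of the group, on log2 of CPM plus 0.5. Of 58 sets of values 14 held such a library. The limit would flag about 1 in 20 sets of independent, normally spread values, but sets here held counts near 0 and shared libraries. The 14 flags can therefore not be set against that share. KD brain 11 of 12 months accounted for 6 of them: S100a8 at 6.63 CPM, S100a9 at 3.70 CPM, Mpo at 1.56 CPM, Elane at 0.975 CPM, Ltf at 4.97 CPM and Camp at 1.66 CPM, each far above the other KD brains of its age. The level of S100a8 in CD brain 6 of 26 months, 4.8 CPM, stood above 1.29 CPM in the next of its group, and KD liver 12 stood above the other KD livers in S100a8 (7.41 CPM) and S100a9 (2.85 CPM).

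The remaining libraries that stood apart did so for 1 gene each. Mpo was highest in CD brain 5 of 26 months (0.873 CPM, 7 counts), Elane in CD brain 1 of 12 months (0.183 CPM, 2 counts, with 0 in the other 4), and Mmp9 was lowest in CD brain 7 of 26 months (0.821 CPM, 9 counts). Itgam was lowest in CD brain 4 of 12 months (2.76 CPM) and in KD brain 11 of 26 months (2.83 CPM).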

How the results depend on the processing

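In the liver the median log2 fold change of the 7 filtered genes was -4.29 and lay between -4.44 and -3.35 with each library left out, but was -1.45 with limma voom (added after seeing the data) and -0.69 with its quality weights, where Ltf stood at 1.22 and Mpo at 0.81. Without the 6 livers high in Gm10800 it was -3.95. In the brain 1 of the 3 genes, Csf3r, was called with age. That count was 0 without the filter and 0 with a replicate block, and 0 or 1 with each library left out. The block used only a shared number, over all brains. Numbers 1, 4 and 7 occur in the CD brains of both ages, and further numbers recur between other groups, always in different mice. The deviations of equal numbers in CD brains correlated at 0.19, -0.23 and -0.08, so they are no pairing, and the other shared numbers were not checked. With the block Csf3r had 0.57 (edgeR adjusted p = 0.623) and Mmp9 -0.15, and 20 genes were called in all. Over all genes age gave 278 calls, 499 with DESeq2 and 121 with the 2 groups alone, and the liver 0 calls and 177 with DESeq2. For the cyclic KD in the brain the small fold changes of Itgam and Csf3r (-0.026 and -0.020) turned to 0.082 and 0.049 with quality weights, and ranged from -0.073 to 0.030 and from -0.064 to 0.041 with each library left out. Itgam turned above 0 without CD brain 4 or 5 or KD brain 11 of 26 months, and Csf3r without CD brain 4 or 6 or KD brain 11, 13 or 14. The cause of these changes was not tested. For the other brain comparisons 0 of the 3 genes were called in every alternative run. By Spearman rho the 10 genes most like the neutrophil genes in liver had 0.847 to 0.965 and the 5 in brain 0.766 to 0.843. Ranked by rho, those 10 liver genes stood from place 31 (Tnfrsf26) to place 872 (Nhsl2), and the 5 brain genes from 1 to 15. The liver list thus depends on the measure. At these depths 7 of the 10 genes did not pass the filter in the brain, so a missing call does not show that they were level. How large a difference could be detected for them was not tested.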

Other observations

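Markers of further blood cells went their own way in the liver. B and plasma cell markers had log2 fold changes of KD against CD above 0 for 8 of 9 tested genes, with a median of 0.65 and 0 called. They summed to 1290 CPM in KD liver 16, 812.7 CPM in KD liver 10 and 707.9 CPM in CD liver 5. Markers of mast cells, basophils and eosinophils were highest in CD livers 3 and 5, at 130.8 and 135.1 CPM, and lower in CD liver 6 at 37.5 CPM, although that liver had the highest sum of the 10 genes. Of the growth factors and chemokines, Cxcl12 was lowest in CD livers 3, 5, 6 and 7, at 201.9 to 433.5 CPM, and ran from 568.2 to 833.1 CPM elsewhere. The other 5 tested genes of that list had log2 fold changes of KD against CD below 0.

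In the brain erythrocyte markers were below 0 with the cyclic KD for 7 of 8 genes, with a median of -0.74, of which 5 had an unadjusted p under 0.05 and 0 were called. Of the 5 tested genes of the cytosol and surface list 3 were above 0 with age, with a median of 0.07 and 0 called (G0s2 at 0.34 and Gda at -0.37), and all 6 tested specific and gelatinase granule genes were below 0 with the cyclic KD, with a median of -0.42 and 0 called. Of the azurophil list 0 genes passed the filter in the brain.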
